A study of Mus musculus with 125 samples.

Results

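Venous endothelial cells line the vessels that drain the cerebral cortex. Here they were taken from 2 single-cell RNA-sequencing libraries of mouse cortex, 1 from postnatal day 8 (P8) and 1 from adult animals, which were 2 months old according to the series' design text. A barcode was kept if it had at least 200 genes and a mitochondrial share of at most 10%. It was called endothelial if at least 3 of the 6 genes Cdh5, Pecam1, Egfl7, Esam, Tie1 and Kdr were detected and no unique molecular identifier (UMI, 1 tagged transcript) of Tyrobp, Epcam or Pdgfrb was found. An endothelial cell was called venous if at least 2 of the 4 venous markers Nr2f2, Vwf, Vcam1 and Lcn2 were detected and none of the 3 arterial markers Bmx, Gja4 and Sema3g. The rule found 834 venous cells among 7168 endothelial cells and 42340 barcodes in the 5 single-cell libraries of the series. At P8 they were 515 of 4318 endothelial cells and in the adult 319 of 2850. They were compared with the endothelial cells of the same library that detected none of the 7 marker genes (1223 at P8 and 1150 in the adult), called comparison cells below, and with 121 and 143 arterial cells, defined by at least 2 of the 3 arterial markers and no venous one.

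Both libraries were made from dissected cortex dissociated with a neural tissue kit and enriched on a magnetic column with beads against CD31, the product of Pecam1. No strain, sex, number of animals or treatment is given in the labels of these libraries, and the names of the cells rest on the detected genes alone. The wider series holds chromatin accessibility, bulk RNA and single-cell RNA data of endothelial cells and whole tissue at several ages and from several organs. Of these, the peak calls of the brain at P6 and in the adult are used at the end. Each age has 1 single-cell library, so no test across samples was possible, age and library cannot be told apart, and every interval below is an exact 95% interval that covers counting error only.

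Endothelial cells along the vascular tree differ by zone. Arterial cells depend on Notch signalling and the ephrin ligand Efnb2, venous cells carry the ephrin receptor Ephb4 and the nuclear receptor Nr2f2 (COUP-TFII), which restrains Notch signalling in veins, and capillary cells carry most of the transport functions of the blood-brain barrier. In venules, leukocytes roll on selectins, bind Vcam1 and Icam1 and leave the blood, and the Weibel-Palade granules that store von Willebrand factor (Vwf) are plentiful. Lcn2, an iron-siderophore-binding protein of innate immunity, has been used as a marker of venous cells of the brain.

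Most venous cells qualified through the same pair of markers. Nr2f2 and Vwf alone accounted for 286 of the 515 P8 cells (55.5%) and 202 of the 319 adult cells (63.3%). At P8, 394 venous cells had 2 markers, 102 had 3 and 19 had 4. In the adult these numbers were 229, 69 and 21. The level of Nr2f2 in the summed venous cells was 142 UMIs per 1000000 UMIs (CPM) at P8 and 287 CPM in the adult, and that of Vwf was 225 CPM and 588 CPM. Vcam1, the leukocyte adhesion molecule, stood at 13.9 CPM and 166 CPM, and Lcn2 at 21.5 CPM and 12.3 CPM. These values chose the cells and are given as a description. Cells with exactly 1 marker, which lay just outside the rule, held 67.1 and 92.4 CPM of Nr2f2 and 79.6 and 205 CPM of Vwf at P8 and in the adult.

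The rule favoured deeply read cells. Venous cells had a median of 16484 UMIs at P8 against 6087 in comparison cells, and 9865 against 3914 in the adult. The medians of arterial cells were 7122 and 5225, and those of cells with exactly 1 venous marker 7956 and 4739. The venous share of endothelial cells was 11.9% (11 to 12.9) at P8 and 11.2% (10.1 to 12.4) in the adult. When each endothelial cell was first thinned to 2000 UMIs, the same rule found 92 of 4223 P8 cells (2.18%, 1.76 to 2.67) and 127 of 2680 adult cells (4.74%, 3.97 to 5.61), of which 74 and 117 were among the main venous cells. The share of cells in this class is therefore a share at a given depth. With venous cells thinned to 2000 UMIs, Nr2f2 was detected in 23% at P8 and 47.2% in the adult, Vwf in 31.3% and 57.2%, Vcam1 in 2.92% and 12.6%, and Lcn2 in 5.45% and 2.20%. In kept barcodes with none of the 6 endothelial genes, which had medians of 1247 and 2463 UMIs, Vwf was detected in 4.62% and 2.84% of barcodes. Nr2f2 and Vcam1 are also made outside the endothelium, and stood at 186 and 154 CPM and at 115 and 366 CPM in those barcodes.

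Each marker was also higher in cells chosen without it. For each marker, cells with at least 2 of the other 3 venous markers were compared with cells that detected none of the other 6 genes. At P8, Nr2f2 stood at 151 against 50.7 CPM, a ratio of 2.97 (2.67 to 3.30), and Vwf at 263 against 66.9 CPM, a ratio of 3.93 (3.61 to 4.28). Vcam1 was 2.37-fold higher (1.65 to 3.45) and Lcn2 1.61-fold higher (1.23 to 2.12) at P8. In the adult, Nr2f2 stood at 297 against 40.3 CPM, 7.39-fold (6.31 to 8.67), and Vwf at 789 against 79.4 CPM, 9.94-fold (8.96 to 11). Adult Vcam1 stood at 132 against 2.58 CPM, 51.3-fold with a lower limit of 29.1, and adult Lcn2 at 10.8 against 1.30 CPM, 8.32-fold (3.52 to 24.0). The same cells, still chosen on all their UMIs, were then thinned to 2000 UMIs, which leaves the part of depth in the choice. The ratios of Nr2f2 were 2.42 and 6.75, those of Vwf 3.21 and 10.6, and those of Vcam1 3.79 and 29.4. The interval of Lcn2 then included 1 in both libraries, at 1.66 (0.769 to 3.45) and 3.34 (0.622 to 17.9).

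**Figure D1:**
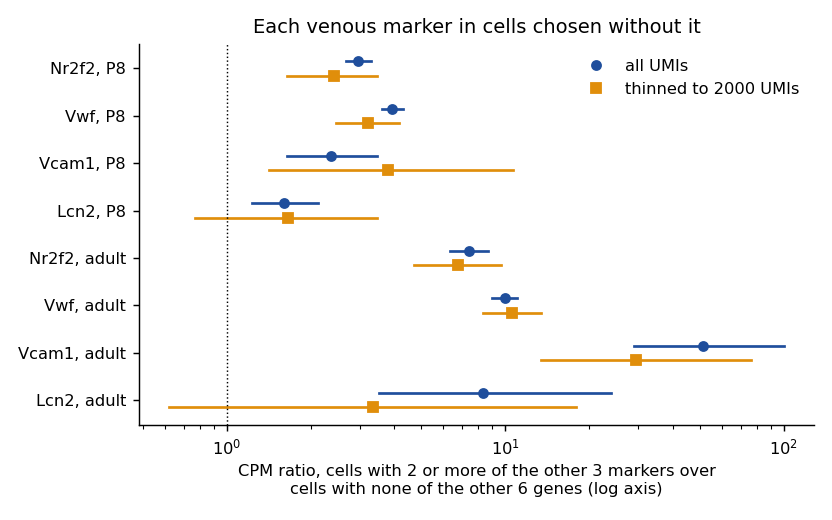
Each point is the CPM ratio (log axis) of 1 venous marker between cells chosen by the other 3 markers and cells with none of the other 6 marker genes, in the P8 and adult libraries. Blue circles use all UMIs, orange squares the same cells thinned to 2000 UMIs after the choice, and bars are exact 95% counting intervals. All ratios lie above 1, from 1.61 for Lcn2 at P8 to 51.3 for Vcam1 in the adult, and only the thinned intervals of Lcn2 cross 1.

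Across the transcriptome, the P8 venous cells had 639 of 11575 genes at least 2-fold higher than comparison cells (5.52%) and 324 at least 2-fold lower (2.80%). In the adult, 326 of 10091 genes were at least 2-fold higher (3.23%) and 278 lower (2.75%). Of the 9953 genes that entered in both libraries, 94 were higher in both (0.944%), 77 were lower in both (0.774%) and 11 went opposite ways. A gene entered if its summed count in both classes predicted at least 10 UMIs in the venous cells. The 7 marker genes and 9 genes of the endothelial gate were left out. Because the cells were chosen from the same libraries by genes that vary with these, the folds describe the class and are no test of it.

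Of the 15 genes furthest above comparison cells in both libraries, F5, coagulation factor V, stood at 10.6 against 1.59 CPM at P8 and 68.7 against 10.4 CPM in the adult, ratios of 6.66 (3.82 to 12.5) and 6.59 (4.83 to 9.16).

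Adgrg6, an adhesion G protein-coupled receptor that binds collagen IV, stood at 53.0 against 2.05 CPM at P8, 25.9-fold (16.2 to 44.0), and at 44.2 against 0.868 CPM in the adult, 50.9-fold (19.5 to 189). Arterial cells held 0.99 CPM of Adgrg6 at P8 and no UMI in the adult. Myof, a membrane repair protein of the ferlin family, was 29.7-fold higher at P8 (43.9 against 1.48 CPM; 17.2 to 56.1) and 6.01-fold higher in the adult (153 against 25.4 CPM; 4.92 to 7.39). Col6a6, a collagen VI chain, stood at 4.53 against 0.114 CPM at P8. In the adult it stood at 28.3 CPM with no UMI in comparison cells, at least 43.5-fold higher when those cells are set at 3 UMIs.

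Several leading genes came from few cells. Lrg1, a secreted glycoprotein that modulates TGF-beta signalling in endothelium, was detected in 15 P8 venous cells (3.76 against 0.228 CPM) and in 42 adult venous cells (45.9 against 0.434 CPM, 106-fold, 28.9 to 881). Ackr1, the atypical chemokine receptor of venules also known as DARC, was detected in 107 P8 venous cells. It stood at 23.9 against 1.02 CPM there, 23.4-fold (12.1 to 51.7), with no UMI in P8 arterial cells or in barcodes without endothelial genes. In the adult all 22 UMIs of Ackr1 lay in 2 cells, 5.62 CPM, against none in comparison cells. The LIM homeobox gene Lhx6 stood at 5.13 against 0.228 CPM at P8 and at 33.7 CPM against no UMI in the adult, at least 51.7-fold.

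Ptgs2, the inducible cyclooxygenase, stood at 9.58 against 1.02 CPM at P8 and 10.5 against 0.217 CPM in the adult. Adh1, an alcohol dehydrogenase that also oxidises retinol, stood at 28.6 against 3.53 CPM, 8.12-fold (5.61 to 12.1), and at 9.19 against 0.434 CPM, 21.2-fold (5.45 to 181). Lbp, the lipopolysaccharide binding protein, was 11.1-fold higher at P8 (6.89 to 19.0) and 12.3-fold higher in the adult (3.02 to 109). Wnt9b, a Wnt ligand, had low levels, 1.54 against 0.114 CPM and 7.91 against 0.434 CPM. Gm5127, Samd5 and the matricellular gene Sbspon were also among them. Sbspon was no higher than in arterial cells, at 3.51 CPM in venous and 5.94 CPM in arterial cells of the P8 library.

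**Figure D2:**
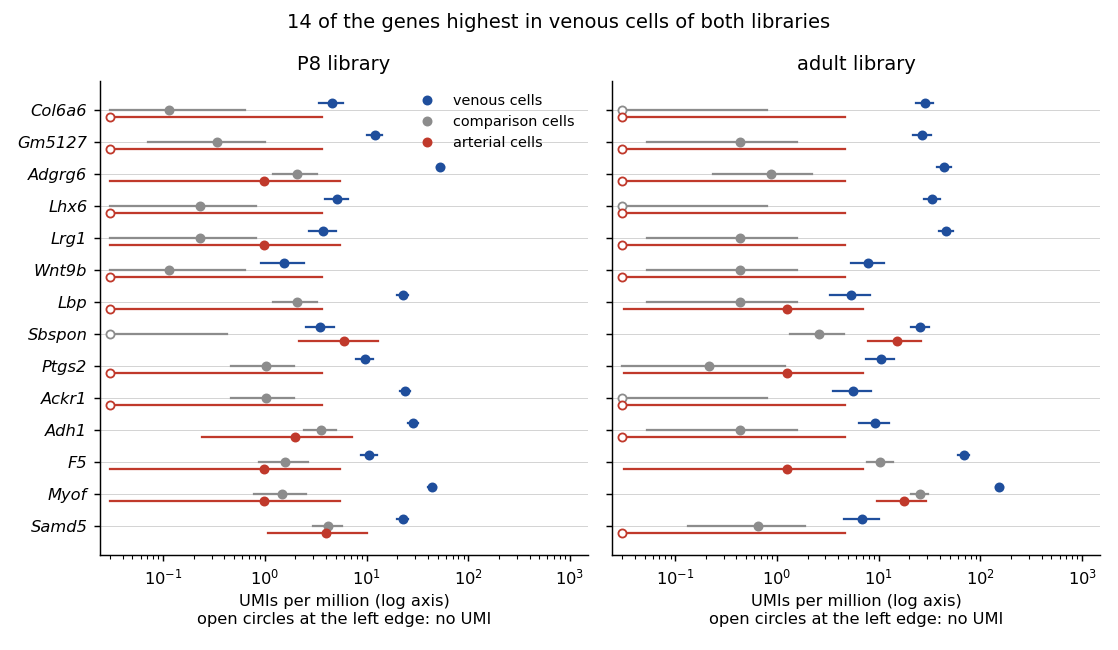
Levels in CPM (log axis) of 14 of the 15 genes with the largest smaller ratio over both libraries, in venous (blue), comparison (grey) and arterial (red) cells of the P8 library (left) and the adult library (right). Bars are exact 95% Poisson intervals and open circles mark a class with no UMI. Venous cells lie above comparison cells for all 14 in both libraries, from 1.54 CPM for Wnt9b at P8 to 153 CPM for Myof in the adult, while Sbspon is as high or higher in arterial cells at P8.

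Depth was brought nearer by pairing venous cells with comparison cells of a similar UMI count, within 0.25 on the log2 scale. This paired 354 P8 cells and 188 adult cells. Adgrg6 was then 29.8-fold higher at P8 and 10.3-fold in the adult, and Myof 33.1-fold and 3.12-fold. Of the 94 genes higher in both libraries, 26 were still 2-fold or more higher in both among the paired cells, and of the 77 lower, 12 were still lower in both. The pairing also leaves fewer UMIs, so fewer genes entered, and the comparison cells it picks are deeper and held more haemoglobin RNA. Hbb-bs stood at 26116 CPM in the paired P8 and 25438 CPM in the paired adult comparison cells, against 18011 and 6997 CPM in all of them, and its part in the paired ratios was not tested. Among the leading genes, paired P8 ratios were 13.3 for Ackr1, 18.4 for Gm5127, 9.40 for Lhx6 and 6.27 for Lrg1, and at least 3.28 for Sbspon and 2.09 for Col6a6. Paired adult ratios were 8.17 for Adh1, 6.35 for Wnt9b and 4.08 for Sbspon, and at least 3.03 for Ackr1, 3.33 for Samd5, 3.93 for Lhx6, 5.45 for Gm5127 and 6.05 for Col6a6. The P8 values of Gm5127, Lhx6 and Lrg1 and the adult values of Adh1 and Wnt9b rested on 1 or 2 UMIs in comparison cells. In paired adult cells Ptgs2 had 8 UMIs against 0, at least 2.42-fold higher, and Lrg1 22 against 0, at least 6.66-fold higher, with the empty class set at 3 UMIs.

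**Figure D3:**
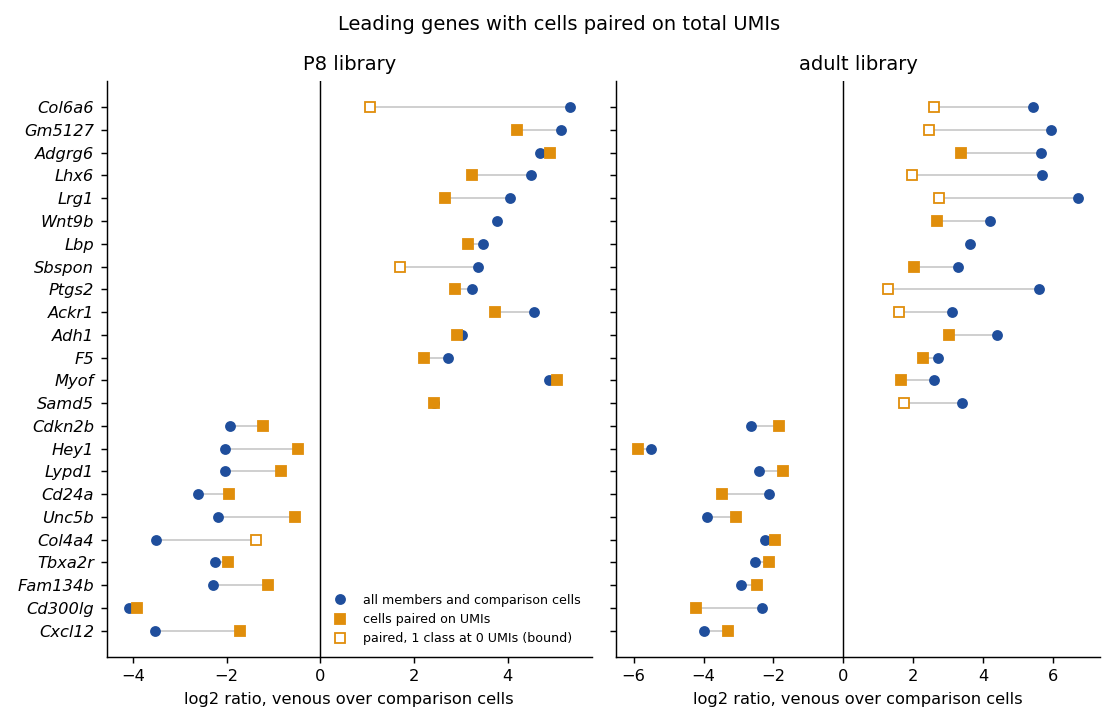
Log2 ratio of venous over comparison cells for 24 leading genes with all cells (blue circles) and with cells paired on total UMIs (orange squares; open squares are bounds where 1 class had no UMI), at P8 (left) and in the adult (right). The 14 upper genes stay above 0 wherever a paired value could be given, and none was given where neither class had more than 3 UMIs. Among the lower 10 the P8 values of Hey1 and Unc5b move toward 0, to -0.48 and -0.54.

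A list of genes known from veins, outside the rule, was written with earlier results of these data known. Its counts are therefore a description and no test of the class. Of its genes, 13 of 15 had a log2 ratio above 0 at P8 and 10 of 13 in the adult. The share of all genes above 0 was not computed. Of 15 such genes, 6 were at least 2-fold higher and none lower at P8, with a median log2 ratio of 0.96 against -0.01 over all genes. In the adult, 13 entered, 9 were higher and 1 lower, with a median of 1.68 against -0.01. In both libraries 4 were higher. In cells paired on UMIs, 6 of the 6 P8 genes and 7 of the 9 adult genes stayed past 2-fold higher, and the lower adult gene, Aplnr, did not stay lower. This and the other lists stand beside 5.52% of all genes higher and 2.80% lower at P8, and 3.23% and 2.75% in the adult. Some venous-list calls rested on few UMIs. Thinned to 2000 UMIs, P8 Selp had 1 UMI against 0 and P8 Lrg1 1 against 1, and adult Ackr1 lay in 2 venous cells. Il1r1, the receptor for interleukin 1, stood at 39.8 against 21.0 CPM at P8 (1.89-fold, 1.59 to 2.25) and at 332 against 31.3 CPM in the adult (10.6-fold, 8.95 to 12.7). Nrp2, a co-receptor for VEGF-C and class 3 semaphorins, stood at 138 against 69.2 CPM (2.00-fold after rounding and just short of the 2-fold call, 1.82 to 2.19) and 180 against 37.8 CPM (4.76-fold, 4.03 to 5.65, and 3.12-fold in cells paired on UMIs). Ctsc, a lysosomal dipeptidyl peptidase, was 4.34-fold higher (3.75 to 5.05) and 3.20-fold higher (2.81 to 3.64).

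Other venous genes did not separate the cells at P8. Slc38a5, a glutamine transporter known from brain veins and venous capillaries, stood at 966 CPM in venous cells and 859 CPM in comparison cells at P8, 1.12-fold (1.09 to 1.16), and at 519 against 210 CPM in the adult, 2.47-fold (2.28 to 2.67). In cells paired on UMIs its ratios were 0.973 and 1.96. Against arterial cells, at 269 and 15.0 CPM, Slc38a5 was higher in both libraries. Ephb4 stood at 23.3 against 18.1 CPM at P8 and at 118 against 52.7 CPM in the adult, 2.24-fold, or 1.60-fold in paired cells. Emcn, a sialomucin of veins and capillaries, was lower than in comparison cells, 1.58-fold (1.48 to 1.69) at P8 and 1.78-fold (1.65 to 1.93) in the adult. In paired cells P8 Emcn was level (ratio 1.01) and adult Emcn 1.52-fold lower. Aplnr, the apelin receptor, stood at 327 against 260 CPM at P8 and at 10.5 against 21.5 CPM in the adult, where paired cells were level too (ratio 1.01). Flt4, also in the venous list, was lower in both libraries by less than 2-fold, at 52.0 against 71.9 CPM at P8 and 65.6 against 87.2 CPM in the adult.

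Leukocyte adhesion and chemokine genes outside the rule had 6 of 17 members at least 2-fold higher and 2 lower at P8, and 3 of 10 higher and none lower in the adult. Their medians were 0.25 and 0.12 against -0.01 for all genes in each library. Some genes stand in more than 1 list. Ackr1, Selp and Sele at P8 and Icam1 and Ackr1 in the adult were also counted as higher in the venous list. In paired cells 5 of the 6 higher and 1 of the 2 lower P8 genes stayed past 2-fold, and 3 of the 3 higher adult genes. Icam1 stood at 113 against 57.8 CPM at P8 (1.95-fold, 1.76 to 2.16) and 58.7 against 14.3 CPM in the adult (4.10-fold, 3.10 to 5.47). Csf1, the macrophage growth factor, stood at 56.6 against 27.6 CPM and 35.2 against 12.2 CPM. The selectin Selp was rare, 2.22 CPM in P8 venous cells and 9 UMIs in 3 adult venous cells. Ccl21a, a chemokine that guides dendritic cells and T cells, was not in that list but in the list of lymphatic endothelial markers. It stood at 601 against 249 CPM at P8 and 287 against 4.77 CPM in the adult, where 88 venous cells held it. Ccl21a has near-identical copies in the mouse genome, so its counts are uncertain. The other 3 lymphatic markers were at or near 0 in venous cells, Prox1 at 0.428 CPM and no UMI, Lyve1 at 1.28 and 1.02 CPM, and Pdpn at no UMI in either library. In paired cells Csf1 was 1.84-fold higher at P8 and 5.26-fold in the adult, and Ccl21a 1.88-fold and 13.3-fold (181 against 13.7 CPM).

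Haemostasis and granule genes had 7 of 22 members higher and 1 lower at P8, and 6 of 16 higher and 2 lower in the adult, with medians of 0.11 and 0.40 against -0.01 for all genes. In both libraries 4 were higher and 1, Angpt2, was lower. At P8 the calls of S100a10 and Ptgis were lost in paired cells, at 1.32-fold and 1.51-fold, and without cycling cells, at 1.36-fold and 1.81-fold, and Angpt2 was 1.84-fold lower in paired cells. Ptgis, the prostacyclin synthase, stood at 149 against 72.1 CPM at P8 (2.06-fold) and 88.3 against 9.98 CPM in the adult (8.85-fold, 6.49 to 12.3). S100a10, which helps generate plasmin at the cell surface, stood at 14.4 against 6.14 CPM and 117 against 16.5 CPM, and in paired adult cells at 73.6 against 18.8 CPM, 3.92-fold. Arterial cells held 13.9 and 139 CPM of S100a10. Thbd, the thrombin-binding anticoagulant thrombomodulin, stood at 28.1 against 27.1 CPM at P8 and 394 against 190 CPM in the adult. Mmrn1, a granule protein that binds factor V, stood at 34.0 against 8.30 CPM at P8 and 0.766 CPM against no UMI in the adult.

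Among receptors and targets of inflammatory cytokines, 2 of 20 genes were higher at P8 and 4 of 20 in the adult, and none was lower, with medians of 0.18 and 0.33. Over all genes 5.52% were higher and 2.80% lower at P8, and 3.23% and 2.75% in the adult. Beside Lrg1, Il6ra was higher in both, at 4.70 against 1.82 CPM and 97.5 against 40.8 CPM. Lrg1 in both libraries and Il1r1 in the adult were also counted as higher in the venous list. The P8 value of Il6ra rested on few UMIs, at 1.16-fold in paired cells (13 against 10 UMIs) and 2.18-fold lower when thinned to 2000 UMIs (1 against 5). Of MHC class I and interferon genes, 2 of 23 were higher at P8 and 1 of 24 in the adult, with none lower and medians of 0.35 and 0.11, again beside 5.52% and 3.23% higher over all genes. Ifitm1, an interferon-inducible membrane protein, was higher in both, at 15.2 against 4.10 CPM and 14.5 against 5.21 CPM, or 4.36-fold higher in paired adult cells. Of 19 Wnt pathway genes and targets that entered, none passed 2-fold in either library, with medians of -0.07 and -0.16.

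**Figure D4:**
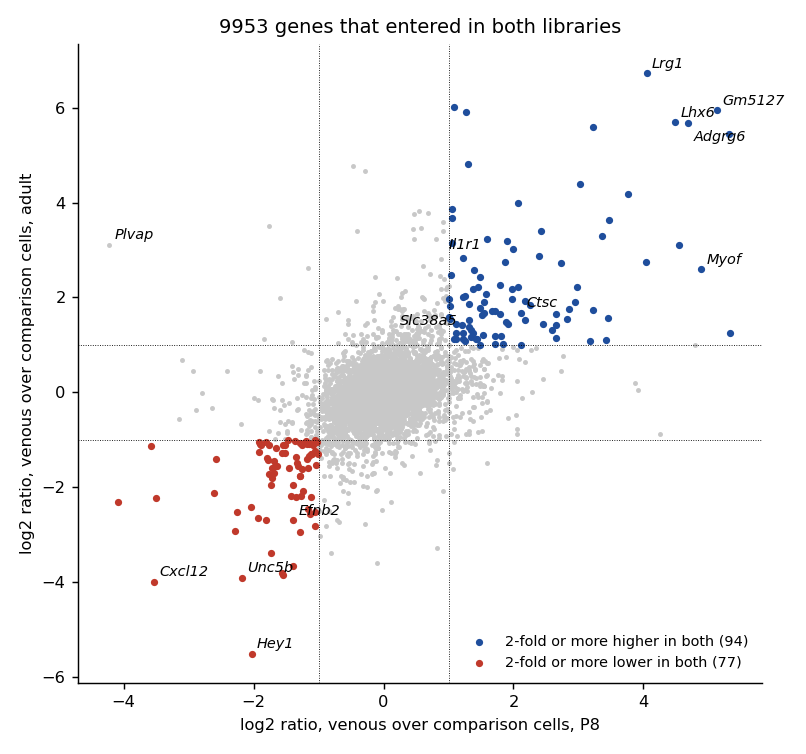
Each point is 1 of 9953 genes, placed by its log2 ratio of venous over comparison cells at P8 (horizontal) and in the adult (vertical); dotted lines mark 2-fold. The 94 blue genes are at least 2-fold higher in both libraries and the 77 red genes at least 2-fold lower in both; Plvap is among the 11 genes that went opposite ways.

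Of 17 arterial genes outside the rule that entered in each library, 6 were at least 2-fold lower and 3 higher at P8, and 9 were lower and 3 higher in the adult, with medians of -0.79 and -1.01 against -0.01 for all genes. Both the 6 lower and the 3 higher genes at P8 were so in the adult too. In cells paired on UMIs, 1 of the 6 lower P8 genes, Cxcl12, and 7 of the 9 lower adult genes stayed past 2-fold, as did the 3 higher genes in both libraries. The neuronal growth gene Stmn2, 1 of the 6, was 1.49-fold lower in paired P8 cells, on 6 UMIs in venous cells, and 3.42-fold lower in paired adult cells. Cxcl12, the chemokine ligand of Cxcr4, stood at 46.5 CPM in P8 venous cells, 538 CPM in comparison cells and 3298 CPM in arterial cells, 11.6-fold below comparison cells (10.6 to 12.7). In the adult it stood at 255, 4045 and 4593 CPM, 15.9-fold below (14.9 to 16.9). Comparison cells thus lay near arterial cells in adult Cxcl12 and well below them at P8. In cells paired on UMIs, Cxcl12 was 3.27-fold lower at P8 and 9.93-fold lower in the adult.

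Of 10 genes of the Notch pathway, 2 were lower and 1, the ligand gene Dll1, higher at P8, and 2 were lower and none higher in the adult, with medians of -0.60 and -0.38 against -0.01 for all genes. Over all genes 5.52% were higher and 2.80% lower at P8, and 3.23% and 2.75% in the adult. Hey1, a transcriptional repressor induced by Notch, stood at 10.4 against 42.7 CPM at P8 (4.09-fold lower, 3.33 to 5.06) and at 1.02 against 46.7 CPM in the adult (45.7-fold lower, 17.6 to 169), with 264 and 171 CPM in arterial cells. The Notch ligand Dll4 was 2.42-fold lower at P8 and 4.54-fold lower in the adult. Hey1 and Dll4, the 2 lower genes in each library, were also counted in the arterial list. Efnb2 stood at 7.10 against 18.5 CPM and 3.06 against 20.0 CPM, and the netrin receptor Unc5b at 6.50 against 29.5 CPM and 2.30 against 34.5 CPM. In cells paired on UMIs the P8 values shrank to 1.40-fold lower for Hey1, 1.22-fold for Dll4, 1.69-fold for Efnb2 and 1.45-fold for Unc5b. The paired adult values were 59.5-fold for Hey1, 2.35-fold for Dll4, 4.22-fold for Efnb2 and 8.37-fold for Unc5b. With all cells thinned to 2000 UMIs after the choice instead, P8 Hey1 was 2.60-fold and Unc5b 5.24-fold lower, and P8 Dll4 and Efnb2 were 1.46-fold and 1.59-fold lower. The P8 values of these 4 genes thus moved with the treatment of depth, and Dll4 and Efnb2 were under 2-fold both ways.

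The 3 genes of the arterial list that stood higher were Mgp, Eln and Vegfc. Mgp, a matrix protein that binds BMPs and limits calcification, stood at 22.6 against 6.03 CPM at P8 (3.74-fold) and 215 against 23.4 CPM in the adult (9.17-fold, 7.50 to 11.3). Its P8 value was 2.17-fold in paired cells and 1.77-fold without cycling cells. Arterial cells held 13.9 and 247 CPM of Mgp. Eln, which encodes elastin, stood at 22.0 against 8.30 CPM and 56.7 against 9.55 CPM, with 9.90 and 75.2 CPM in arterial cells. Vegfc, a lymphangiogenic growth factor, stood at 13.7 against 3.75 CPM and 10.2 against 1.52 CPM, with 145 and 46.4 CPM in arterial cells. In these 3 genes both ends of the vascular tree lay above the comparison cells in the adult library.

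Capillary and barrier genes had median log2 ratios below 0 in both libraries. Of 12 capillary genes, 3 were lower and 1 higher at P8 and 2 lower and 1 higher in the adult, with medians of -0.52 and -0.33. Over all genes 2.80% and 2.75% were lower and 5.52% and 3.23% higher. Mfsd2a, the lysolipid transporter of the blood-brain barrier, stood at 487 against 986 CPM at P8 (2.02-fold lower) and 329 against 642 CPM in the adult (1.95-fold lower), and at 1.47-fold and 1.83-fold lower in paired cells. Rgcc, a cell cycle regulator enriched in capillaries, stood at 114 against 260 CPM and 333 against 677 CPM. Ivns1abp, an actin-associated kelch protein, stood at 28.0 against 58.5 CPM and at 17.1 against 121 CPM, 7.06-fold lower in the adult (5.47 to 9.23). In paired cells P8 Rgcc was 1.48-fold and P8 Ivns1abp 1.45-fold lower, so that none of the 3 capillary genes lower at P8 stayed past 2-fold there, and adult Rgcc was 1.52-fold lower. Lpl, lipoprotein lipase, was the capillary gene that stood higher, at 5.22 against 1.59 CPM and 50.8 against 15.4 CPM. At P8 Lpl was 1.49-fold higher in paired cells (10 against 6 UMIs) and 0.916-fold when thinned (2 against 5), and adult Lpl was 5.75-fold higher in paired cells. Of 15 barrier transporters, 2 were lower at P8 and 1 in the adult, and none was higher, with medians of -0.51 and -0.13. Slc1a1, a glutamate and cysteine transporter, was lower in both, at 35.1 against 121 CPM and 110 against 285 CPM, and 1.92-fold and 1.77-fold lower in paired cells.

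Other genes among the 10 furthest below comparison cells in both libraries were the kinase inhibitor gene Cdkn2b, 3.81-fold and 6.22-fold lower, and Fam134b, an endoplasmic reticulum autophagy receptor, 4.90-fold and 7.55-fold lower. Tbxa2r, the thromboxane receptor, was 4.75-fold and 5.78-fold lower, and Lypd1, a modulator of nicotinic receptors, 4.12-fold and 5.31-fold lower. Cd24a was 6.10-fold and 4.37-fold lower. In paired cells P8 Lypd1 was 1.78-fold, Fam134b 2.18-fold, Cdkn2b 2.35-fold and Cd24a 3.83-fold lower, and adult Lypd1 was 3.31-fold and adult Cdkn2b 3.62-fold lower. Cd300lg and the collagen gene Col4a4 rested on a few UMIs in venous cells.

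The comparison with arterial cells used smaller classes. Of 6849 genes that entered in both libraries, 80 were at least 2-fold higher in venous than in arterial cells in both (1.17%) and 82 lower (1.20%). Of the 94 genes higher than in comparison cells in both libraries, 39 could be compared with arterial cells in both, and 19 of these were also at least 2-fold higher than there. Of the 77 lower genes, 26 could be compared and 14 were also at least 2-fold lower. Both comparisons use the same counts of the venous cells, so these numbers are a description and no separate evidence. In the venous list, 9 of 12 genes were higher and 1 lower than in arterial cells at P8, where 6.77% of all genes were higher and 4.77% lower. In the adult, 9 of 11 were higher and none lower, against 4.55% and 3.24% of all genes. Tmsb10, a small actin-binding protein, was 1.15-fold above comparison cells at P8, at 4003 against 3467 CPM, with 1418 CPM in arterial cells. Adult Tmsb10 stood at 2701 CPM in venous, 1454 CPM in comparison and 178 CPM in arterial cells.

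The venous cells varied among themselves with the number of markers. At P8, the 121 cells with 3 or 4 markers held 41.4 CPM of Ackr1 against 14.5 CPM in the 394 cells with 2 markers, and 80.7 against 38.1 CPM of Adgrg6. Mgp stood at 47.5 against 9.09 CPM, and Hey1 at 1.71 against 15.1 CPM. Slc38a5 was nearly level, at 991 against 952 CPM. The cells with more markers were also deeper, with medians of 25570 against 14846 UMIs. In the adult, the cells with 3 or 4 markers (median 18345 UMIs) and those with 2 (median 7812 UMIs) held 79.4 and 18.2 CPM of Lrg1, 365 and 90.1 CPM of Mgp, and 58.5 and 13.1 CPM of Lhx6. Adult Il1r1 differed less, at 394 against 281 CPM. Cxcl12 ran the other way, 162 against 332 CPM. The split uses the same markers that chose the cells, and the part of depth in these differences was not tested.

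Adult venous cells with and without Vcam1 differed in Lrg1, Lhx6 and Mgp. This split overlapped that by marker number. Of the 105 adult cells with Vcam1, 60 also held Nr2f2 and Vwf without Lcn2, and 21 held all 4 markers. Cells with a Vcam1 UMI held 84.5 CPM of Lrg1 against 11.6 CPM in those without, 59.6 against 10.6 CPM of Lhx6 and 350 against 95.1 CPM of Mgp. At P8, Icam1 stood at 167 CPM in venous cells with Vcam1 and 92.6 CPM in those without, and Lrg1 at 9.56 and 1.64 CPM. P8 Lhx6 stood at 2.87 CPM (1.31 to 5.44, 9 UMIs) and 5.96 CPM (4.44 to 7.84, 51 UMIs), with overlapping intervals. Vcam1 is detected more often in deeper cells, and the part of depth in these differences was not tested.

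Proliferation genes stood higher in P8 venous cells. Of 15 cell cycle genes, 12 were at least 2-fold higher and none lower at P8, with a median log2 ratio of 1.95 against -0.01 for all genes. Mki67, the proliferation antigen, stood at 132 against 27.1 CPM and Top2a, the topoisomerase of dividing cells, at 191 against 42.8 CPM. Cells with at least 2 of Mki67, Top2a, Cdk1, Ccnb1, Cenpf and Birc5 were 177 of 515 P8 venous cells (34.4%, 30.3 to 38.6) and 84 of 1223 comparison cells (6.87%, 5.52 to 8.43). Thinned to 2000 UMIs, they were 77 of 514 (15.0%, 12 to 18.4) and 38 of 1177 (3.23%, 2.29 to 4.40), and none of 117 arterial cells, for which the exact interval reaches 3.10%. In cells paired on UMIs none of the 15 genes was 2-fold higher. Without the cycling cells, 63 of the 94 genes higher in both libraries and 36 of the 77 lower were still past 2-fold in both, and 185 genes in place of 639 were higher at P8. In the adult no venous cell of 319 passed this criterion, which allows a share of up to 1.15% by the exact interval.

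Tip cell genes mark the leading cells of growing sprouts. None of 12 had a log2 ratio above 0 at P8, and 2 of 6 had one in the adult. The share of all genes above 0 was not computed, and the median of all genes was -0.01 in each library. At P8 6 of 12 were at least 2-fold lower and none higher, with a median of -1.07, beside 2.80% of all genes lower. In the adult 4 of 6 were lower, with a median of -1.35, beside 2.75%. Angpt2, a Tie2 ligand stored in granules, stood at 20.3 against 59.6 CPM at P8 and 0.51 against 7.16 CPM in the adult. Angpt2 and Dll4, 2 of the 6 lower P8 genes, were under 2-fold both in paired cells, at 1.84-fold and 1.22-fold lower, and when thinned to 2000 UMIs, at 1.88-fold and 1.46-fold. Paired values were taken for 3 of the 6, and 1, Ramp3, stayed past 2-fold. Esm1, a proteoglycan of sprouting endothelium, stood at 2.82 against 11.3 CPM and Cxcr4 at 7.27 against 27.2 CPM at P8. In the list of VEGF, Tie and ephrin signalling, 4 of 19 (Angpt2, Efnb2, Unc5b and Ramp3) were lower at P8 and none higher, with a median of -0.17. In the adult 5 of 19 were lower and 2, Nrp2 and Ephb4, higher, with a median of -0.21. Of the 4 lower P8 genes, only Ramp3 stayed past 2-fold in paired cells, at 4.24-fold lower. Adult Ephb4 was under 2-fold in paired cells, and of the 5 lower adult genes Aplnr was level there and Nrp1 1.64-fold lower.

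Transcripts of other cell types were present in every class. The 5 haemoglobin and erythroid markers summed to 8086 CPM in P8 venous cells against 26933 CPM in comparison cells, and to 3993 against 11589 CPM in the adult, at least 2-fold lower for 5 of 5 in both libraries. Thinned to 2000 UMIs, adult Hbb-bs was 1.54-fold lower, and adult Hba-a2 and Alas2 had log2 ratios of 0.41 and 0.08. In paired cells adult Hbb-bs was 9.27-fold lower. Mural cell markers summed to 45.1 against 129 CPM at P8, led by Rgs5 at 29.9 against 97.5 CPM, and to 176 against 184 CPM in the adult. Astrocyte markers summed to 65.8 against 108 CPM and 27.1 against 92.9 CPM, microglial markers to 60.4 against 102 CPM and 42.6 against 65.1 CPM, and adult oligodendrocyte markers to 43.4 against 178 CPM. At P8 the oligodendrocyte markers summed to 28.4 against 24.5 CPM, with Cldn11 at 6.50 against 0.341 CPM. Fibroblast markers summed to 3.93 against 1.48 CPM and 2.04 against 0.434 CPM. Immediate early and heat shock genes, which respond to dissociation, summed to 4939 against 4656 CPM and 5661 against 4594 CPM. The part of these transcripts in the lower folds was not tested. A doublet caller marked 0 of 5277 P8 cells and 2 of 3671 adult cells and so had not worked, and doublets were not removed. Without cells of more than 3 times the median UMIs of the library's endothelial cells, 35 of the 94 higher genes and 20 of the 77 lower genes were still past 2-fold in both libraries.

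Adult and P8 venous cells differed in many genes, as did adult and P8 comparison cells. Of 10437 genes, 1422 were at least 2-fold higher in adult venous cells (13.6%) and 1556 lower (14.9%). In comparison cells 1396 of 10543 were higher (13.2%) and 1404 lower (13.3%). The median log2 ratios were 0.04 and 0.06. Since each age is 1 library, the genes below were named for a ratio in venous cells that was more than 2 times that of comparison cells on the log2 scale, or opposite to it.

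The 10 genes named as higher in adult venous cells ranged from 7.76-fold to 17.0-fold. Plscr2 (17.0-fold), Nckap5 (16.3-fold), the cytochrome P450 gene Cyp2e1 (0.770 and 11.5 CPM) and Ccdc109b, a subunit of the mitochondrial calcium uniporter (2.31 and 31.9 CPM), were among them. Il1r1 went from 39.8 CPM at P8 to 332 CPM, 8.36-fold (7.51 to 9.31), and was 1.48-fold higher in comparison cells. Lrg1 was 12.2-fold higher (8.74 to 17.4), against 1.91-fold in comparison cells. S100a10 stood at 14.4 and 117 CPM, 8.11-fold (6.78 to 9.73), against 2.68-fold, and arterial cells held 13.9 and 139 CPM of it. Cysltr1, the leukotriene D4 receptor, stood at 2.14 and 16.6 CPM, 7.76-fold, against 1.27-fold. Ramp3, which shapes the adrenomedullin receptor, stood at 2.74 and 23.5 CPM. Zfp941 (11.9-fold) completes the 10.

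The genes lower in adult venous cells included cell cycle genes and Hey1. Cenpa, the centromeric histone, stood at 95.9 CPM at P8 and 6.13 CPM in the adult, 15.7-fold lower (10.5 to 24.5), against 2.76-fold in comparison cells. E2f7, a repressor of the cell cycle programme, stood at 9.92 and 0.510 CPM. Of the 15 cell cycle genes, 14 were at least 2-fold lower in adult venous cells, with a median log2 ratio of -5.73 against -3.90 in comparison cells. Without the cycling cells Cenpa stood at 10.3 and 6.13 CPM, 1.68-fold lower, Rfc5 was 3.48-fold lower and E2f7 7.10-fold lower, while the histone gene Hist1h2ap was 2.86-fold higher in the adult, on 4 and 9 UMIs. Of the 20 genes named by age, the other 18 stayed past 2-fold in the same direction. Hey1 was 10.2-fold lower (3.89 to 38.1) in adult venous cells, while comparison cells held 42.7 and 46.7 CPM. Without the cycling cells it was 21.7-fold lower, at 22.1 and 1.02 CPM. Venous cells with 3 or 4 markers held 1.71 CPM of Hey1 at P8 (0.686 to 3.51) and 1.69 CPM in the adult (0.348 to 4.93), on 7 and 3 UMIs. Those with 2 markers held 15.1 and 0.467 CPM, on 115 and 1 UMIs, at median depths of 14846 and 7812 UMIs. The difference between ages was thus seen in the cells with 2 markers. The cells with 3 or 4 markers held too few UMIs to tell whether they differed. Clec1a, a C-type lectin receptor, stood at 45.3 and 4.34 CPM, and Plk2, a kinase of the stress response, at 152 and 18.6 CPM, 8.18-fold lower (6.47 to 10.5) against 2.11-fold. Mpped2, Hist1h2ap, Rfc5, Acot7 and Fam174b complete the 10, between 10.4-fold and 14.2-fold lower.

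**Figure D5:**
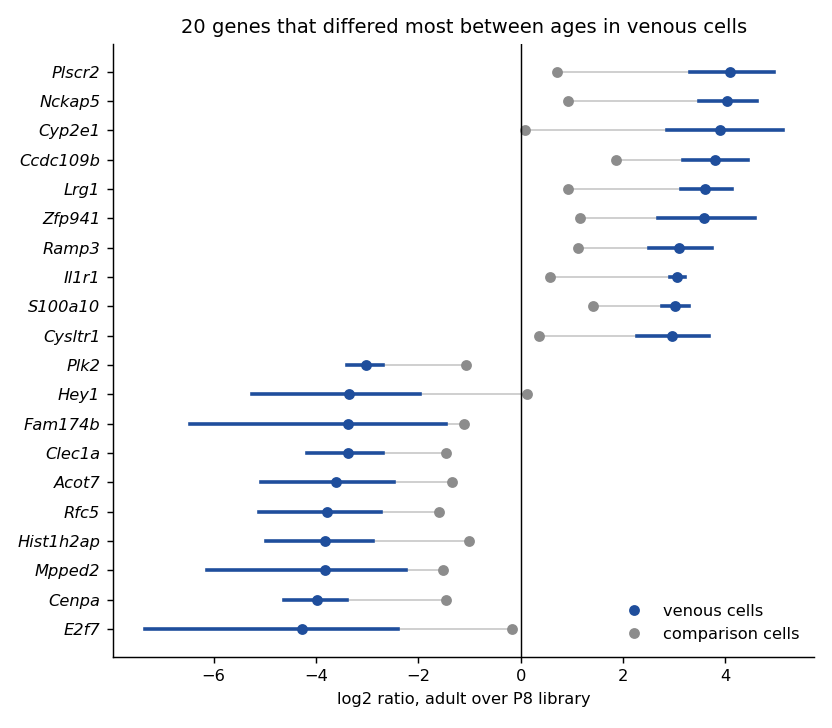
Log2 ratio of the adult over the P8 library for the 20 genes named by the age rule, in venous cells (blue, with exact 95% counting intervals) and comparison cells (grey). Venous values run from Plscr2 at 17.0-fold higher to E2f7 at 19.4-fold lower. The rule itself requires the grey points to lie nearer to 0 or, as for Hey1, on the other side of it.

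Open chromatin at the start of these genes was taken from the peak lists of the authors, called in each library from nuclei of brain endothelium or of whole brain (input). These are bulk libraries in which veins are 1 part, and the protocol text gives collection at P7 for postnatal tissue labelled P6, after tamoxifen. Over the 7649 genes with a known start, a peak covered the start in 92.4% and 94.3% in the 2 adult endothelial libraries. The 3 P6 endothelial libraries had 87.0%, 95.6% and 95.3%, the adult input 94.0% and the 3 P6 inputs 92.3%, 94.7% and 93.6%. Of the 94 genes higher in venous cells in both libraries, 65 had a known start. Their shares were 66.2% and 80.0% in adult endothelium, 46.2%, 86.2% and 84.6% in P6 endothelium, 70.8% in the adult input and 73.8%, 75.4% and 69.2% in the P6 inputs. These shares lay below those of all genes in every library. For the 56 lower genes with a start, endothelial shares ran from 55.4% to 78.6% and input shares from 75% to 78.6%. P6 replicate 1 had the lowest share in each set. Among the 14 venous marker and leading genes with a start, 3 had a peak in every adult endothelial library and 0 in every P6 endothelial library, or 6 without P6 replicate 1. The share of all genes with a peak in every library of an age was not computed. Of the 3 arterial markers, Gja4 and Sema3g had a peak in every endothelial library of both ages and Bmx in none.

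Of the starts looked up, a few carried a peak in endothelial libraries and in no input library. The share of all genes with this pattern was not computed, so these starts are given as a description. At Ackr1 and at Wnt9b a peak covered the start in 2 of the 3 P6 endothelial libraries, with fold enrichments given by the authors' caller of 3.21 and 4.49 for Ackr1 and 5.49 and 3.32 for Wnt9b, and in 0 of 3 P6 inputs, 0 of 2 adult endothelial libraries and 0 of 1 adult input. Lcn2, F5 and Adh1 each had a peak in 1 of the 3 P6 endothelial libraries, of 4.47-fold, 3.45-fold and 3.21-fold, and in no other. For each of them this library was P6 replicate 3. Emcn had one in 2 of 2 adult and 2 of 3 P6 endothelial libraries and in no input. Nr2f2, Lrg1, Col6a6, Gm5127, Slc38a5, Sele and Selp had no peak over the start in any of these libraries. Starts of Nrp2, Ephb4 and Ctsc were covered in all of them, inputs included. Of the 2 starts of Il1r1, 1 was covered in all of them and the other in all but the adult input and P6 input replicate 3.

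The 250 bases before the start are shown for Ackr1 and Wnt9b, whose starts were covered at P6 but not in the adult, and for Lrg1, which had no peak over its start. They come from the RefSeq table of GRCm38.p6, read 5′ to 3′ on the gene's strand. Capitals mark 2 of the motifs searched on both strands, AGGTCA, a core bound by nuclear receptors, and CAGGAA, an ETS-type core, which reads in reverse as TTCCTG.
Ackr1 chr1:173333504-173333753, minus strand: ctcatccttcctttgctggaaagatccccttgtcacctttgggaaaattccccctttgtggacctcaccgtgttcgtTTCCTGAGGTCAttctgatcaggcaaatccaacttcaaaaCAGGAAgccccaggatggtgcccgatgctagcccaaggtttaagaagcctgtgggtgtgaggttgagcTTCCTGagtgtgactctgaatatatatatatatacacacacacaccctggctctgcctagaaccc
Wnt9b chr11:103749822-103750071, minus strand: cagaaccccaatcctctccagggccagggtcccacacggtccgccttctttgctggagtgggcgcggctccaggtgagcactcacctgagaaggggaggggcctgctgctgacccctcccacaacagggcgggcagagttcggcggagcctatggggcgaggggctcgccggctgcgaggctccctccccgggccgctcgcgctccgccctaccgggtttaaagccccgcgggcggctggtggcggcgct
Lrg1 chr17:56121947-56122196, minus strand: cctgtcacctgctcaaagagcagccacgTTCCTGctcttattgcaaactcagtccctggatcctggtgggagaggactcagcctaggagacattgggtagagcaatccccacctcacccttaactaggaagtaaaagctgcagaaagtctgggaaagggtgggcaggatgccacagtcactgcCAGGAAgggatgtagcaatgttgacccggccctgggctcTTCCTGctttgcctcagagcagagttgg
Counted from the start, Ackr1 held CAGGAA at -173 (in reverse), directly beside AGGTCA at -167, and further CAGGAA matches at -133 and -65. Lrg1 held CAGGAA at -222, -67 and -28, and Wnt9b held none of the motifs. Of 32851 promoters of this length, 14.0% held AGGTCA and 25.7% held CAGGAA. The NF-kappaB consensus, also searched, occurred in 0.718% of promoters and in none of these 3. A match is a description of the letters and not a measured site.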

How the data were processed

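The single-cell matrices hold UMI counts that the authors deposited. Per the file headers they come from Cell Ranger 4.0.0, and the submitters' processing notes name mm10 and Seurat 4.0.4. Venous cells, comparison cells and arterial cells were taken by the detected genes, and the cells and gene lists were chosen with earlier results of these data known. Counts were summed per library and class and divided by the class total, as CPM, with exact Poisson, binomial and conditional ratio intervals. No model was fitted, since each age has 1 library. A gene entered if at least 10 UMIs were expected in the venous cells, or in the smaller class for the other contrasts. A class with 0 UMIs was set at 3. Summed UMIs of venous cells were 11695565 at P8 and 3917808 in the adult. Of the barcodes, 7305 at P8 and 5552 in the adult, 5277 and 3671 were kept, and 8 sequences occurred in both libraries.

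Genes were named by rule: the 15 highest and 10 lowest by the smaller ratio over both libraries, 10 higher and 10 lower between ages, list genes past 2-fold in both libraries, and members of the venous, arterial, capillary and adhesion lists. One gene that the rule named is not reported here. Other genes printed from the fixed lists were chosen after their values were seen. Per the file headers, the peaks were called by MACS 2.1.2 in each library. The deposited peak files give pileup (signal), fold enrichment (ratio) and −log10 p and q. A peak counted where it covered any listed start of a RefSeq gene (GRCm38.p6). The starts of Vwf and Vcam1 were not analysed here. The scripts used Python 3.11.15 with numpy 2.4.6, scipy 1.17.1, pandas 2.3.3, matplotlib 3.10.9 and scanpy 1.11.5, and the counting and interval code was tested on simulated data.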

Additional observations from a re-analysis of the deposited data

Results flagged for a closer look

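Of the genes that entered in both libraries, 11 were at least 2-fold higher in venous cells of one library and at least 2-fold lower in the other. Plvap, the diaphragm protein of fenestrated endothelium, had a log2 ratio of -4.22 at P8 (2.48 against 46.2 CPM) and of 3.11 in the adult. The adult value is a bound, since comparison cells had no UMI, and all 22 adult UMIs lay in 1 venous cell. Acot7, an acyl-CoA thioesterase, had a log2 ratio of 1.01 at P8 and of -1.27 in the adult. At P8 it was under 2-fold in cells paired on UMIs (0.33) and without cycling cells (0.68), and the paired adult cells held too few UMIs of it (3 against 2) for a ratio. The difference was not tested for either gene, because each age has 1 library.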

How the results depend on the processing

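No paired analysis was possible because the results come from no test and each age is 1 library. The doublet alternative was not usable, since the caller marked next to no cell. Settings with thinning before the rule, without cycling cells and without deep cells were chosen after seeing the data. Counts are given in the order higher, then lower, over comparison cells unless said otherwise, arterial-list genes are those lower in both libraries, cell cycle genes those higher at P8, and settings that leave fewer cells also leave fewer genes that can enter.

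Requiring 3 of the 4 markers left 121 P8 and 90 adult venous cells, with 140 genes lower in both libraries and 134 lower than in arterial cells in both. A mitochondrial limit of 5% left 61 and 97 cells, 316 genes higher at P8 and 193 in the adult, 28 and 37 in both, and 2 higher venous-list genes at P8. Requiring no UMI of other cell types' lists left 56 and 63 cells, 72 and about 1.8e2 genes at P8, 75 and 148 in the adult, 10 and 21 in both, 15 and 17 against arterial cells, 940 and 692 between ages, 5 higher venous-list genes in the adult, 3 lower arterial-list genes and 5 higher cell cycle genes. Thinning to 2000 UMIs gave 163 and 173 at P8, 106 higher in the adult, 23 and 24 in both, 28 and 43 against arterial cells, 839 lower between ages, 3 lower arterial-list genes, and left-out marker ratios of 2.42 for Nr2f2, 3.21 for Vwf and 3.79 for Vcam1 at P8 and 3.34 for adult Lcn2. Pairing on UMIs gave 209 and 108 at P8, 176 lower in the adult, 31 and 15 in both, 1 lower arterial-list gene and 0 higher cell cycle genes. Averaging per-cell CPM gave 44 genes lower in both. With 5 expected UMIs, 489 genes were lower at P8, 437 in the adult and 138 against arterial cells, and with 20 these were 212, 167 and 52. Without an entry filter there were 1035 and 949 at P8, 860 and 771 in the adult, 213 and 172 in both, 173 and 495 against arterial cells and 2489 higher between ages. At 1.5-fold there were 1213 and 933, 689 and 750, 247 and 263, 200 and 290, and 2633 and 2569 in the same order. Thinning before the rule left 92 and 127 cells, 28 and 140 genes at P8, 42 and 128 in the adult, 2 and 16 in both, 31 higher against arterial cells, 536 and 358 between ages, 2 higher venous-list genes at P8 and 5 in the adult, 1 lower arterial-list gene and 0 cell cycle genes. Of the main 94 higher and 77 lower genes, 1 and 4 stayed past 2-fold in both libraries with thinning before the rule. Requiring no UMI of other cell types' lists kept 6 and 12, and a mitochondrial limit of 5% kept 17 and 25. Thinning to 2000 UMIs kept 19 and 16, and requiring 3 of the 4 markers 59 and 54. Without cycling cells, 338 P8 venous cells gave 185 and 147 genes, 38 lower in both and 1 higher cell cycle gene. Without deep cells there were 204 and 134 genes at P8, 142 and 169 in the adult, 41 and 21 in both and 2 cell cycle genes. With only 1 of the other 3 markers required, left-out ratios at P8 were 1.93 for Nr2f2, 2.14 for Vwf and 1.55 for Vcam1. The P8 interval of Lcn2 under this setting included 1, at 0.979 to 1.62. In the adult the left-out ratios were 5.10 for Nr2f2 and 6.04 for Vwf.

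Of 514 alternative values of the 25 leading genes, 396 stayed within the main value's counting interval or, where 1 class had no UMI, gave a bound below it, 116 moved past it and 2 changed sign, both under thinning before the rule and on few UMIs, adult Cd24a to a log2 ratio of 0.60 and adult Cd300lg to 0.23. Over every named gene outside the rule, 58 of 1043 values under thinning, pairing, cycling or deep-cell settings changed sign, and 20 of these had been past 2-fold, P8 Il6ra (-1.13 thinned), P8 Lpl (-0.13 thinned) and adult Aplnr (0.63 thinned before the rule) among them. Starts with a peak in every P6 endothelial library numbered 3 with a window of 500 bp, and leaving out 1 library at a time gave 0 to 6 at P6 and 3 to 4 in the adult. The cause of these shifts was not tested.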

Other observations

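Cells with both venous and arterial markers were left out of every class. They numbered 379 of the P8 endothelial cells (8.78%, exact interval 7.95 to 9.66) and 265 of the adult ones (9.30%, 8.26 to 10.4). Their medians of 16537 and 11441 UMIs were as high as those of venous cells. Lcn2 reached 463 CPM in adult barcodes with no endothelial gene, where all 268 UMIs lay in 1 barcode, and had no UMI in such barcodes at P8.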
